A study of Homo sapiens and Mus musculus with 28 samples.

Results

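Small nucleolar RNAs (snoRNAs), small Cajal body RNAs (scaRNAs) and mostly noncoding host genes that carry such RNAs were followed through 8 groups of SCC1 cultures. SCC1 is an established human head and neck squamous carcinoma line. Members were chosen by name and level: gene identifiers named SNHG, SNORA, SNORD or SCARNA with a number, plus GAS5 and ZFAS1, whose mean raw count over the 24 SCC1 libraries was at least 5. The rule kept 67 of 459 identifiers with such names, out of 35135 human identifiers in all. Of those 459, 251 were listed at 0 in every library. The 67 were 23 host genes, 22 C/D box snoRNAs, 21 H/ACA box snoRNAs and 1 scaRNA, SCARNA13. Among the host genes, SNHG32 is annotated as protein coding in GENCODE v29. The rule used the mean over all 8 groups and no contrast between groups. Just inside it lay SNHG31 with a mean count of 5.17, SNORA2A with 5.58 and SNORD19 with 5.79. Just outside it lay SNORA2B with 4.92 and SNORD1B and SNORD117 with 4.5 each.

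The study asked how loss of REXO4, an RNA exonuclease of the nucleolus, changes gene expression in this cancer. The sample titles name no experiment or batch, so the groups were placed in a first and a second experiment by their names. In the first, control cells given vehicle (Ctrl Vehicle) stood beside REXO4 knockouts R4KO_1 and R4KO_2 given vehicle. KO_2 cells given H151 or BX_795 were placed with them. In a second experiment, cells given vehicle with no genotype named (Vehicle) stood beside cells labelled iR4 and cells labelled H151_iR4. Every group held 3 libraries. All groups are the same line, and the labels give no dose, no treatment time and no number of clones behind a knockout. H-151 blocks STING, the adaptor through which cytosolic DNA switches on interferon genes. BX-795 inhibits several kinases, among them TBK1, which STING activates. The label iR4 is not spelled out, so it is used as written.

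snoRNAs sit in the nucleolus inside protein complexes and guide chemical marks onto ribosomal RNA: C/D box members direct methylation of the ribose, and H/ACA members direct conversion of uridine to pseudouridine. In human cells nearly all of them are cut out of introns, either of genes that also encode a protein, often a ribosomal one, or of SNHG-type genes whose spliced RNA encodes little or nothing. Many of these hosts begin with a pyrimidine tract at the cap, the feature of transcripts whose translation follows growth signals, and the spliced RNA of hosts such as GAS5 is degraded when it is translated.

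The sequences of the small RNAs on which the results below turn are given first, with their place in GRCh38 (GENCODE v29). Capitals mark the letters TGATGA (a full match to the C box) and CTGA (the D box) in C/D members, and the ACA that lies 3 bases from the 3′ end in the H/ACA member. SNORD100, SNORD101 and SNORA33 lie in introns of 1 gene, RPS12, which encodes a protein of the small ribosomal subunit. SNORA73B lies in introns of both SNHG3 and RCC1, SNORD14A in an intron of RPS13, SNORD6 in an intron of TAF1D and SNORD12B in an intron of ZFAS1.
SNORD100, chr6:132816802-132816877, plus strand: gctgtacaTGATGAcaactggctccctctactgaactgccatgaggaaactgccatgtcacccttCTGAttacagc
SNORD101, chr6:132815307-132815379, plus strand: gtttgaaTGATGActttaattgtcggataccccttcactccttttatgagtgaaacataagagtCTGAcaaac
SNORD14A, chr11:17074654-17074744, minus strand: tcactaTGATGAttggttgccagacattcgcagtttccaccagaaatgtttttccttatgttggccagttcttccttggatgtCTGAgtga
SNORD6, chr11:93731502-93731574, minus strand: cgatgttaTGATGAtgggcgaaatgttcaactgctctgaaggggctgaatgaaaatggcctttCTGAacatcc
SNORD12B, chr20:49280319-49280409, plus strand: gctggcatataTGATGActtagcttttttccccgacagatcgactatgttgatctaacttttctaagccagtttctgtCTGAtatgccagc
SNORA73B, chr1:28508559-28508762, plus strand: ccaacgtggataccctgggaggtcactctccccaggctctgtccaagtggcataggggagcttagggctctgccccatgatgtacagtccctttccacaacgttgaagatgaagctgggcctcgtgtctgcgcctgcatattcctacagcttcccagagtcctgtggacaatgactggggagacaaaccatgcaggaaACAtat

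These boxes were common among the small members, as a check of their labels. On the RNA strand, TGATGA was found in the first 20 bases of 15 of 22 C/D members and CTGA in the last 20 bases of all 22. An ACA 3 bases from the 3′ end was found in 16 of 21 H/ACA members. Over all 1004 snoRNAs and scaRNAs of the annotation, of both kinds, those shares were 24.5%, 48.0% and 30.6%. The H box ANANNA (N is any base), sought anywhere, was in 21 of 21 H/ACA members but also in 18 of 22 C/D members. Of all 1004, 90.1% held it, so it does not separate the classes. C/D members were 68 to 237 bases long, with a median of 80.5, and H/ACA members 122 to 249 bases, with a median of 134.

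For the host genes, the bases around the start of transcription are shown because members of the family moved together. RefSeq promoters (GRCh38.p14) were matched by symbol for 21 of the 23. Each window below runs from 30 bases before the start to 30 bases from it on, so that the 31st letter is the first transcribed base. Capitals mark the longest run of C and T that touches the 20 bases on either side.
SNHG4, chr5:139274071-139274130, plus strand: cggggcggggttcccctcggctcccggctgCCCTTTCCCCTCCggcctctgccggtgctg
SNHG5, chr6:85678704-85678763, minus strand: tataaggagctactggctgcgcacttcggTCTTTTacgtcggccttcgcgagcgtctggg
SNHG12, chr1:28581844-28581903, minus strand: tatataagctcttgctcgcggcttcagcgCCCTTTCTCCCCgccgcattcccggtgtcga
ZFAS1, chr20:49278612-49278671, plus strand: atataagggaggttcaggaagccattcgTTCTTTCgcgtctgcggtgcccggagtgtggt
SNHG3, chr1:28505913-28505972, plus strand: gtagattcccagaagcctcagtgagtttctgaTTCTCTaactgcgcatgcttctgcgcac

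A C at the first transcribed base followed by at least 4 pyrimidines was found in 6 of the 21 (28.6%): SNHG4, SNHG5, SNHG12, SNHG19, SNHG32 and ZFAS1. Of all 35095 RefSeq promoters in the table, 4.07% held it. SNHG3 and GAS5 did not have it at their RefSeq start, and other start sites of those genes were not examined. Within 250 bases before and 50 bases after the start, on either strand, the GC box GGGCGG was found in 15 of 21 (71.4%, against 44.9% of all promoters), TATAAA in 4 (19.0% against 11.5%) and the E-box CACGTG in 1 (4.76% against 7.25%). These are matches of letters, read without a test.

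Library totals ran from 16.04 M to 27.94 M counts. Epithelial identity was checked first: 8 of 8 squamous markers had a mean of at least 1 CPM (counts scaled to library totals with TMM factors over all 24 libraries), led by KRT5 at 561 CPM, with summed levels of 1781 to 4102 CPM per library. No endothelial marker of 4 and no immune marker of 6 reached a mean of 1 CPM, and their sums stayed at or below 2.11 CPM in every library. Of 6 fibroblast markers 3 reached that mean, led by COL1A1 at 31.4 CPM, with sums of 22.5 to 47.9 CPM. Of 3 muscle markers 1 did, DES at 1.95 CPM. REXO4 itself averaged 73.9 ± 3.19 CPM (SD over 3 libraries) in control cells, and 9.39 ± 0.341 and 6.30 ± 1.17 in the knockouts R4KO_1 and R4KO_2, but 17.9 ± 1.53 and 18.9 ± 0.441 in KO_2 cells given H151 or BX_795. PXDN was at 0.140 CPM (SD 0.1098) in R4KO_2 Vehicle, near its 0.0391 in Ctrl, but at 10.9 ± 0.733 and 12.5 ± 0.854 in the treated KO_2 libraries and at 8.04 ± 0.784 in R4KO_1. All 6 treated KO_2 libraries carry this, so no result on them can be given without it. These libraries also held 21.36 M to 27.94 M counts, against 17.73 M to 18.03 M in Ctrl Vehicle and 17.53 M to 17.67 M in R4KO_2 Vehicle. Whether they were prepared together with those groups is not given. Inhibitor, culture and any batch cannot be told apart there. Across the second experiment REXO4 averaged 96.2 ± 3.53 CPM with vehicle alone, 61.4 ± 2.88 in iR4 cells and 91.6 ± 2.28 with H151 added, the order seen below for most members.

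The library preparation bears on what a small RNA count means. RNA was enriched with oligo(dT), and most mature snoRNAs carry no poly(A) tail. The 44 small members took 0.00186% to 0.00524% of all counts as group means, and the 23 host genes 0.0714% to 0.161%. Of the 44, 43 lie within a gene on the same strand, and 39 of these touch no exon of it. SNORD63B, by contrast, lies wholly within an HSPA9 exon, and 56.9% of SNORA31 within a TPT1 exon, so their counts can hold host mRNA. Whether counts on the others came from mature RNA, from unspliced host RNA or from both was not tested. With bulk RNA, fewer cells with a transcript and less of it per cell cannot be told apart. The labels do not say that replicates are separate cultures, so p-values may measure only the spread between libraries.

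In control cells GAS5 was the most abundant host gene per length, at 82.2 ± 2.98 RPKM (CPM per kilobase of exon, mean ± SD, n = 3). SNHG29 followed with 71.1 ± 1.02 and SNHG32 with 70.0 ± 5.04, and SNHG29 and SNHG32 did not differ beyond their spread. SNHG1 was next with 51.7 ± 1.54, then SNHG3 with 39.5 ± 1.98. SNHG8 (34.6 ± 1.87) and SNHG19 (34.2 ± 4.07) did not differ beyond their spread, and ZFAS1 followed with 26.4 ± 1.51. At the other end stood SNHG28 with 0.191 and SNHG31 with 0.0923 RPKM.

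Summed over the 23 host genes, the level was 1478, 1579 and 1557 CPM in the 3 Ctrl Vehicle libraries. It was 749.1, 763.4 and 778.1 CPM in R4KO_1 and 639.2, 660.3 and 682.0 CPM in R4KO_2. With H151 the KO_2 libraries stood at 1622, 1662 and 1671 CPM, and with BX_795 at 1574, 1616 and 1604 CPM. Neither knockout overlapped the control libraries or the treated libraries. In the second experiment the sum was 1640, 1630 and 1586 CPM in Vehicle, 876.6, 851.4 and 892.0 CPM in iR4 and 1622, 1631 and 1640 CPM in H151_iR4. The small RNAs, at far lower sums, were low in the same groups: 54.5 ± 4.92 CPM in control cells, 28.7 ± 1.23 in R4KO_1 and 22.7 ± 1.93 in R4KO_2. With H151 or BX_795 they stood at 43.7 ± 2.52 and 42.5 ± 0.591 CPM, and in the second experiment at 39.6 ± 4.72, 17.7 ± 0.383 and 40.2 ± 1.67 CPM.

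**Figure D1:**
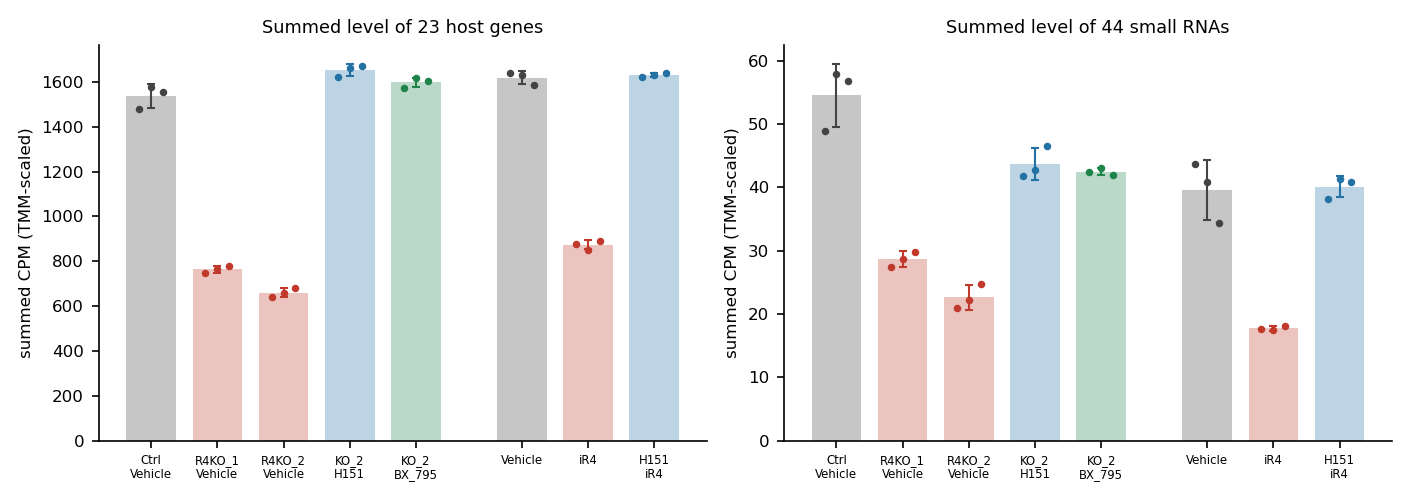
Summed level of the 23 host genes (left) and the 44 small RNAs (right) in each SCC1 group, in TMM-scaled CPM on linear axes that start at 0. Bars are means, whiskers the SD and points the 3 libraries. R4KO_1, R4KO_2 and iR4 lie below every other group in both panels. The treated KO_2, Vehicle and H151_iR4 libraries lie below Ctrl Vehicle for the small RNAs but not for the host genes.

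Loss of REXO4 went with lower levels of most host genes, and SNHG3 was the host gene that fell furthest. SNHG3 (ENSG00000242125, chromosome 1, 28505980 to 28510892, plus strand) hosts SNORA73B. The control libraries held 153.0, 169.1 and 161.6 CPM of it, against 37.6, 41.0 and 41.4 CPM in R4KO_1 and 24.7, 27.3 and 28.97 CPM in R4KO_2. The 3 groups did not overlap. Most members named below were picked partly because their groups did not overlap, so that separation was fixed by the choice. Of all genes tested, 64.4% showed it between R4KO_1 and Ctrl and 69.1% between R4KO_2 and Ctrl. The log2 fold change was -2.00 ± 0.053 (SE) in R4KO_1 and -2.58 ± 0.056 in R4KO_2, with adjusted p = 1.71e-17 and 7.04e-19 by edgeR's quasi-likelihood test with Benjamini-Hochberg adjustment. That test also gave all adjusted p-values below.

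GAS5 (ENSG00000234741, chromosome 1, 173863900 to 173868882, minus strand), whose spliced RNA binds the glucocorticoid receptor and rises when growth stops, fell as well. It stood at 286.0, 304.3 and 305.2 CPM in Ctrl Vehicle, 115.6, 110.4 and 121.9 CPM in R4KO_1 and 90.7, 93.4 and 100.7 CPM in R4KO_2. Every knockout library was below every control library. The log2 fold changes were -1.36 ± 0.046 and -1.65 ± 0.047 (adjusted p = 8.24e-16 and 2.55e-17).

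SNHG5, SNHG4 and SNHG26 were the next largest falls among host genes. SNHG5 was at 28.97, 31.2 and 31.5 CPM in Ctrl Vehicle, 8.82, 8.36 and 7.18 CPM in R4KO_1 and 7.41, 6.74 and 7.43 CPM in R4KO_2. SNHG4 went from 18.9 ± 1.65 CPM in Ctrl Vehicle to 5.57 ± 0.350 and 3.80 ± 0.593, and SNHG26, the host of SNORD93, from 24.5 ± 1.30 to 7.51 ± 0.0576 and 4.90 ± 0.861. For all 3 genes both knockouts lay wholly below the controls, and the log2 fold changes ran from -1.70 to -1.90 in R4KO_1 and from -2.08 to -2.32 in R4KO_2. SNHG1 and ZFAS1, 2 abundant hosts, fell less. SNHG1 was at 194.3 ± 5.80 CPM in control cells, 109.4 ± 5.89 in R4KO_1 and 108.3 ± 3.71 in R4KO_2 (log2 fold changes -0.82 and -0.84). ZFAS1 was at 59.1 ± 3.38, 30.1 ± 1.10 and 27.2 ± 1.30 CPM (-0.96 and -1.12, with adjusted p = 9.99e-11 and 8.72e-12).

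Not every host gene took part. SNHG11 was at 4.75, 6.79 and 6.38 CPM in Ctrl Vehicle and at 6.21, 6.21 and 6.43 CPM in R4KO_2, overlapping groups, with log2 fold changes of 0.22 and 0.08 in the 2 knockouts (adjusted p = 0.102 and 0.594). SNHG10 likewise did not pass in either (-0.21 and -0.19, adjusted p = 0.201 and 0.247). The scarce SNHG28 was higher in R4KO_1 (log2 fold change 0.83, adjusted p = 0.048), on 43 counts against 22 in Ctrl Vehicle. That call held in 4 of 12 alternatives, with adjusted p-values from 0.0229 to 0.283, and was lost without any 1 of the 3 control replicates and without R4KO_1 replicate 1 or 2.

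Counted over members, 54 of the 67 had counts enough to be tested in this experiment, 21 host genes and 33 small RNAs. Scarce members could pass the count filter only through groups where they are high. Their counts can therefore lean toward falls in the knockouts and rises with the inhibitors. In R4KO_1, 37 fell and 1 rose, where 31.4% of all 14348 genes tested fell and 33.0% rose. In R4KO_2, 38 fell and 0 rose, where 32.2% fell and 34.0% rose. Of host genes, 18 of 21 fell in each knockout. At least 2-fold falls were seen for 23 members in R4KO_1 and 29 in R4KO_2, against 2.55% and 3.15% of all genes. The median log2 fold change of the tested members was -0.93 in R4KO_1 and -1.09 in R4KO_2, beside 0.02 over all genes in both. For the count of 0, no member rose in R4KO_2 at an unadjusted p under 0.05, and none rose by DESeq2. The 2 knockouts are compared with the same 3 control libraries, so their counts are not independent.

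**Figure D2:**
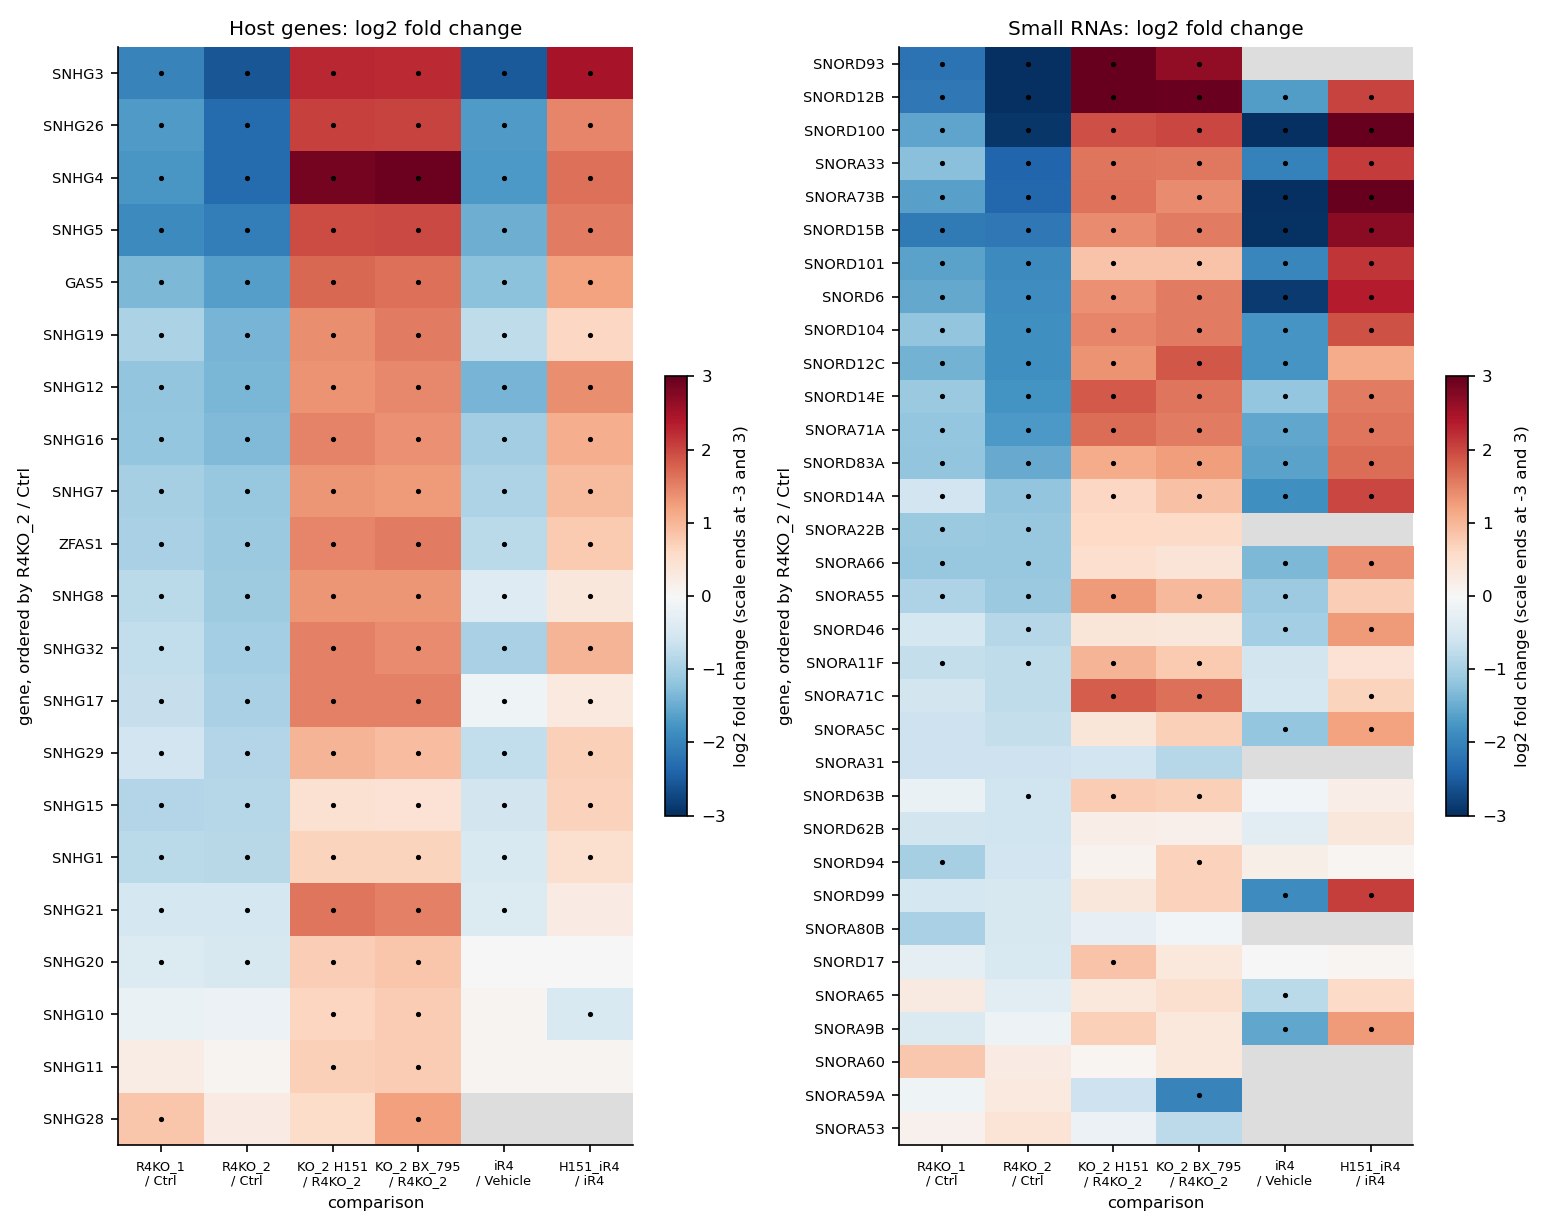
Log2 fold change (colour) of the 21 host genes and 33 small RNAs tested in the first experiment, across the 6 main comparisons, ordered by R4KO_2 against Ctrl. A black point marks an adjusted p under 0.05, grey cells were not tested in the second experiment, and the colour scale ends at -3 and 3; columns 1, 2 and 5 are mostly blue and columns 3, 4 and 6 mostly red, with SNHG10, SNHG11, SNHG20 and SNHG28 pale or uneven at the foot of the left panel.

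Among the small RNAs, those of SNHG3 and RPS12 were among those that fell. SNORA73B (also known as U17b, an H/ACA RNA involved in cutting the ribosomal RNA precursor rather than in marking it) was at 9.03, 10.3 and 9.13 CPM in Ctrl Vehicle, 2.69, 3.42 and 2.99 CPM in R4KO_1 and 1.41, 2.05 and 2.05 CPM in R4KO_2. SNORD100 was at 3.17, 2.79 and 2.87 CPM, then 0.792, 0.894 and 1.25, then 0.209, 0.369 and 0.580 CPM. SNORD101 was at 3.34, 2.79 and 2.87 CPM, then 1.06, 0.841 and 1.03, then 0.470, 0.948 and 0.948 CPM. Every knockout library lay below every control library for each of these, which the naming rule required in at least 1 knockout. In R4KO_1 the log2 fold changes were -1.64, -1.58 and -1.60. Those in R4KO_2 were -2.36 ± 0.150 for SNORA73B, -2.91 ± 0.283 for SNORD100 and -1.92 ± 0.229 for SNORD101 (adjusted p = 8.29e-12, 7.88e-09 and 1.8e-07). SNORA33, the third small RNA of RPS12, had -2.38 ± 0.367 in R4KO_2 (adjusted p = 6.49e-06).

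By class, 12 of 17 tested C/D members and 7 of 16 tested H/ACA members fell in R4KO_1, and 13 and 7 in R4KO_2. No small RNA rose in either knockout by edgeR or DESeq2. Whether the classes differ was not tested, and H/ACA members differ from C/D members in length and in depth. A scarce member that fell was SNORD93, with 44 counts over the 3 Ctrl Vehicle libraries and 3 over the R4KO_2 libraries, a ratio of 0.0613 with a 95% interval of 0.0122 to 0.191 (exact binomial, counting error only). SNORD17, which lies in SNX5 and OVOL2, did not pass in either knockout: 1.70, 1.63 and 1.93 CPM in control cells, 1.003, 1.58 and 1.69 in R4KO_1 and 1.04, 1.32 and 1.48 in R4KO_2.

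R4KO_2 was lower than R4KO_1 for 13 tested members and higher for 0 (16.6% and 15.1% of all genes; no member was higher at an unadjusted p under 0.05 or by DESeq2). Among those, SNORD100 differed most, with a log2 fold change of -1.34 ± 0.351 (adjusted p = 0.00564), then SNORA73B with -0.73 ± 0.182 and SNHG26 with -0.62 ± 0.119. SNHG1, at 109.4 and 108.3 CPM, did not differ by the test (-0.02, adjusted p = 0.765).

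In KO_2 cells given the STING inhibitor H-151, host genes stood far above R4KO_2 cells given vehicle. Of host genes SNHG4 rose furthest: 4.33, 3.16 and 3.898 CPM in R4KO_2 Vehicle against 27.5, 29.2 and 27.7 CPM with H151, a log2 fold change of 2.87 ± 0.092 (adjusted p = 6.45e-17). SNHG3 stood at 127.8, 133.7 and 133.2 CPM with H151 (2.27 ± 0.055), and GAS5 at 306.4, 319.9 and 329.6 CPM (1.73 ± 0.047). The treated libraries lay wholly above the R4KO_2 Vehicle libraries for each, and these groups did not overlap for 76.6% of all genes tested. SNHG26 had a log2 fold change of 2.06, SNHG5 of 1.95, ZFAS1 of 1.46 and SNHG1 of 0.67, all past the threshold. Of small RNAs with enough counts to be named, SNORD100 rose by 1.92 ± 0.310 and SNORA71C, an H/ACA RNA from an intron of SNHG17, by 1.82 ± 0.303.

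Counted together, 39 of 54 tested members rose with H151 and 0 fell, where 35.7% of all genes rose and 37.0% fell. No member fell at an unadjusted p under 0.05 or by DESeq2. At least 2-fold rises were seen for 30 members (5.35% of all genes). The median log2 fold change was 1.19, beside -0.01 over all genes, and 20 of 21 host genes rose. The 3 R4KO_2 Vehicle libraries are shared by the knockout comparison and this one, so a chance low value in them would enter both with opposite sign.

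With BX-795 the levels were close to those with H-151. SNHG4 was at 29.7, 30.1 and 28.8 CPM, SNHG3 at 130.5, 128.9 and 123.6 CPM and GAS5 at 289.6, 303.2 and 307.1 CPM. All 21 tested host genes rose against R4KO_2 Vehicle, and 40 of 54 members rose and 1 fell (36.4% and 37.1% of all genes). Of these, 28 rose at least 2-fold (5.97% of all genes). Among members with a mean log2 CPM of at least 0, the largest rises were SNHG4 (log2 fold change 2.95 ± 0.092), SNHG3 (2.23), SNHG26 (2.03), SNORD100 (2.003 ± 0.305), SNHG5 (1.98) and SNORA71C (1.66 ± 0.307). The scarcer SNORD12B and SNORD93 rose by 2.96 ± 0.482 and 2.67 ± 0.812, SNORD93 with overlapping groups. GAS5 (1.65), ZFAS1 (1.55) and SNHG1 (0.66) passed as well. The 1 fall was SNORA59A, whose identifier is shared with SNORA59B, on 8 counts against 26 with overlapping groups; without R4KO_2 Vehicle replicate 3 or KO_2_BX_795 replicate 3 it did not pass (adjusted p up to 0.143).

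Set against each other, the 2 inhibitors differed in 0 of 54 members tested by edgeR and 0 of 34 tested by DESeq2, where 5.67% of all genes were higher and 3.99% lower with BX_795. At an unadjusted p under 0.05, 1 member was higher and 3 were lower with BX_795. For SNHG3 the BX_795 minus H151 difference was -0.04 on the log2 scale, with an approximate 95% interval from its SE of -0.14 to 0.05. For SNHG4 it was 0.07 (-0.06 to 0.20) and for GAS5 -0.09 (-0.17 to -0.002, adjusted p = 0.234). For SNORD100 the interval was wider, -0.34 to 0.50 around 0.08. No dose was given for either compound.

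Against Ctrl Vehicle, treated KO_2 cells did not hold the same levels. With H151, 13 members were higher and 11 lower (26.0% and 26.9% of all genes), and with BX_795 12 were higher and 11 lower (27.7% and 28.0%), shares no larger than those of all genes. With H151, 12 of 21 host genes were higher and 4 lower. Of 33 small RNAs 1 was higher and 7 were lower, no larger a share than the 26.9% of all genes that were lower. SNHG21 was at 2.58, 2.67 and 2.81 CPM in Ctrl Vehicle and at 6.37, 5.13 and 5.79 CPM with H151, a log2 fold change of 1.09 ± 0.164 (adjusted p = 8.58e-06). SNHG11 (0.79) and SNHG4 (0.57) were also above control with H151, and SNHG21 (1.001) and SNHG11 (0.84) with BX_795. SNHG3 was below it (-0.30 with H151 and -0.35 with BX_795, adjusted p = 1.45e-05 and 2.3e-06), and GAS5 did not pass (0.08 and -0.002). Untreated groups differed as well: every Vehicle library held less SNHG3 than every Ctrl Vehicle or treated KO_2 library. A level below Ctrl Vehicle is thus not a level below untreated cells in general.

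SNORD101 and SNORD100, both of RPS12, lay below control in treated KO_2 cells. SNORD101 was at 1.37, 1.14 and 1.74 CPM with H151 and at 1.46, 1.29 and 1.54 CPM with BX_795, each library below the lowest control at 2.79 CPM. The naming rule required this, and 59.3% and 61.5% of all genes tested had groups that did not overlap. The log2 fold change of SNORD101 against Ctrl was -1.07 with either compound (adjusted p = 8.17e-05 and 6.92e-05), and that of SNORD100 was -0.99 and -0.91. SNORA33 had -0.77 ± 0.276 with H151 (adjusted p = 0.0233), a call lost without control replicate 2 or 3 or KO_2_H151 replicate 1 and by DESeq2 (adjusted p from 0.0647 to 0.0973). The host mRNA RPS12 was at 794.6 ± 17.4 CPM in Ctrl Vehicle, 772.6 ± 72.8 with H151 and 756.6 ± 9.76 with BX_795. SNORA73B was likewise below control, by -0.74 ± 0.118 with H151 and -0.95 ± 0.120 with BX_795. Every untreated Vehicle library also held less SNORA73B than every Ctrl Vehicle library. Summed small RNAs averaged 39.6 CPM in Vehicle and 54.5 CPM in Ctrl Vehicle, beside 43.7 with H151 and 42.5 with BX_795. Such gaps to Ctrl Vehicle were therefore also seen between untreated groups, which belong to different experiments. SNORA71C went the other way, with 0.704, 1.10 and 1.87 CPM in Ctrl Vehicle, 3.55, 1.85 and 2.28 CPM with H151 and 2.26, 2.002 and 2.596 CPM with BX_795. With H151 the log2 fold change was 1.05 ± 0.277 (adjusted p = 0.00297), and the call held in 12 of 12 alternatives, although H151 replicate 2 lay just below the highest control. With BX_795 it was 0.90 ± 0.280 (adjusted p = 0.00945), a call that did not hold without Ctrl Vehicle replicate 1 (0.0795).

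**Figure D3:**
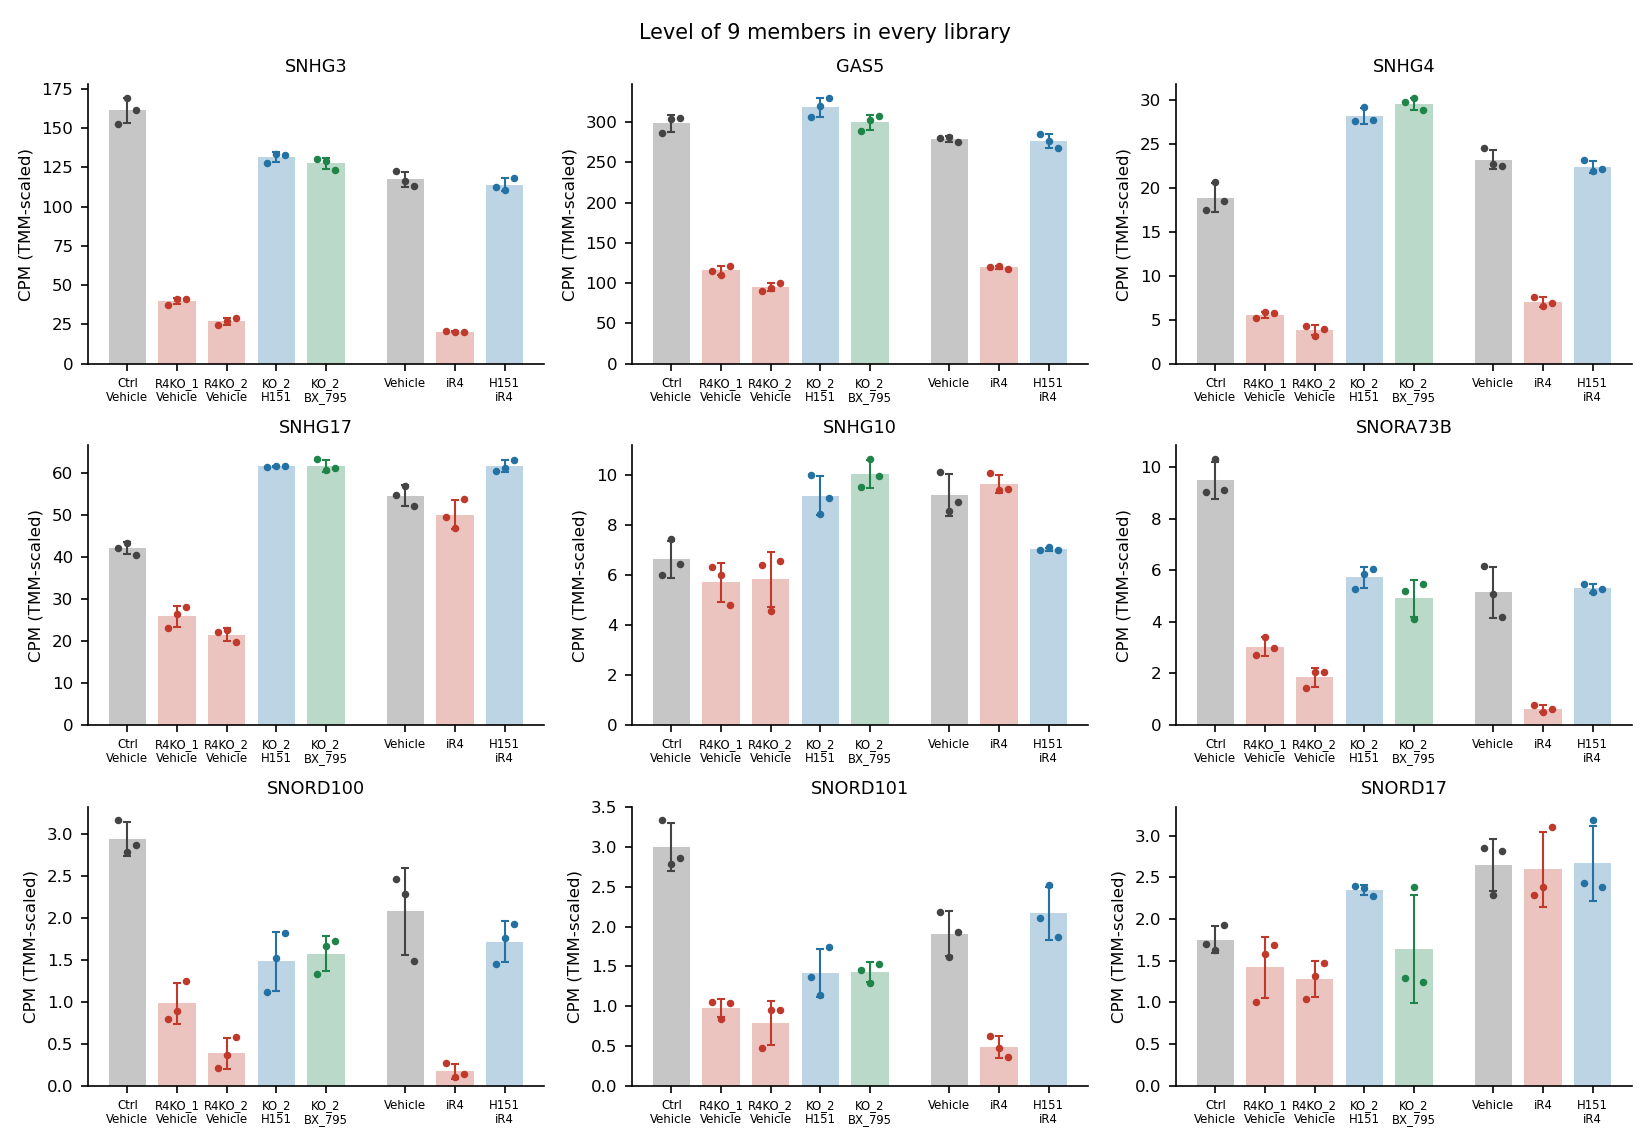
Level of 9 members in every SCC1 library, in TMM-scaled CPM on linear axes that start at 0, with bars for means, whiskers for the SD and points for the 3 libraries of a group. SNHG3, GAS5, SNHG4, SNORA73B, SNORD100 and SNORD101 are low in R4KO_1, R4KO_2 and iR4, SNHG17 is low in the knockouts but near Vehicle in iR4, and SNHG10 and SNORD17 are not low in iR4.

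In the second experiment, iR4 cells held less of most members than Vehicle cells. SNHG3 was at 122.6, 116.4 and 113.2 CPM in Vehicle and at 20.9, 20.4 and 19.9 CPM in iR4, a log2 fold change of -2.52 ± 0.048 (adjusted p = 5.93e-23). GAS5 was at 280.6, 281.5 and 275.1 CPM and at 120.2, 120.8 and 117.7 CPM (-1.22 ± 0.034). SNHG4 fell from 24.5, 22.7 and 22.4 CPM to 7.63, 6.53 and 6.88 CPM (-1.72 ± 0.078). The groups were far apart in each case. ZFAS1 (-0.81) and SNHG1 (-0.46) fell less.

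The tested small RNAs had a median log2 fold change of -1.55 in iR4, and the host genes -0.79. Of 44 small RNAs, 18 had too few counts to be tested here. A scarce RNA could pass the count filter only through groups where it is high, so the tested ones can lean toward falls in iR4. SNORD100 had 45, 45 and 30 counts in the Vehicle libraries and 6, 2 and 3 in the iR4 libraries, a log2 fold change of -3.53 ± 0.350 (adjusted p = 1.91e-09). SNORA73B was at 6.18, 5.07 and 4.198 CPM in Vehicle and at 0.763, 0.478 and 0.621 CPM in iR4 (-3.01 ± 0.207). SNORD101 (-1.95 ± 0.267) and SNORD14A (-1.83 ± 0.262) fell as well. No iR4 library reached the lowest Vehicle library for any of these, a separation that the naming rule required. The 2 groups did not overlap for 73.8% of all genes tested. Of 46 members tested here, 37 fell and 0 rose, where 34.8% of all 14000 genes fell and 37.1% rose. No member rose at an unadjusted p under 0.05 or by DESeq2. Falls of at least 2-fold were seen for 26 members (2.94% of all genes), and the median log2 fold change was -1.12 (0.02 over all genes). Of 20 host genes 17 fell, and of 26 small RNAs 20 fell.

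Several host genes stood at Vehicle levels in iR4. SNHG20 was at 12.9, 9.34 and 11.6 CPM in Vehicle and at 10.6, 10.8 and 11.8 CPM in iR4 (log2 fold change -0.02, adjusted p = 0.889). SNHG10 and SNHG11 also did not pass (0.08 each). SNHG17 differed only slightly: 54.8, 57.1 and 52.1 CPM against 49.5, 47.0 and 53.8 CPM, overlapping groups, with -0.12 ± 0.051 (adjusted p = 0.0385). That call held in 6 of 12 alternatives, with adjusted p-values up to 0.194, and was lost without iR4 replicate 1 or 2 and without Vehicle replicate 1 or 2. Its intronic SNORA71A, by contrast, was at 1.75, 1.47 and 1.14 CPM against 0.449, 0.372 and 0.621 CPM (-1.55 ± 0.296, adjusted p = 4.94e-05).

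With H151 and iR4 together, the members stood near Vehicle levels. SNHG3 was at 112.3, 110.7 and 118.6 CPM (log2 fold change 2.48 ± 0.049 against iR4), GAS5 at 285.2, 276.0 and 268.2 CPM (1.21 ± 0.034), and SNORA73B at 5.46, 5.14 and 5.28 CPM (3.06 ± 0.208). SNORD100 rose by 3.27 ± 0.369, SNORD101 by 2.15 ± 0.262, SNORD14A by 2.001 ± 0.259 and SNORD83A, from an intron of RPL3, by 1.68 ± 0.316. ZFAS1 (0.79) and SNHG1 (0.48) rose as well. Against iR4, 34 of 46 members rose and 1 fell (35.1% and 36.3% of all genes), and 25 rose at least 2-fold (3.09%), with a median of 1.16 beside -0.01. The member that fell was SNHG10, at 10.1, 9.39 and 9.41 CPM in iR4 and 6.98, 7.09 and 6.98 CPM in H151_iR4 (-0.46 ± 0.096, adjusted p = 0.000151). Here too iR4 is shared by both comparisons, and the same limit of the count filter holds.

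Against Vehicle, 1 member was higher and 2 were lower in H151_iR4 (8.71% and 9.58% of all genes): SNHG17 (log2 fold change 0.18 ± 0.050, adjusted p = 0.0147), SNHG10 (-0.38 ± 0.098, adjusted p = 0.0071) and SNHG26 (-0.24 ± 0.067, adjusted p = 0.0144). The call of SNHG17 was lost without H151_iR4 replicate 3 (adjusted p = 0.0637) or Vehicle replicate 3 (0.099), that of SNHG10 without Vehicle replicate 1 (0.0506) and that of SNHG26 without Vehicle replicate 2 (0.0651) or by DESeq2 (0.079). The other 43 did not pass, and SNHG3 (-0.04, adjusted p = 0.49) and GAS5 (-0.01, adjusted p = 0.824) were among them.

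Each small RNA was set beside the gene that holds it on the same strand, where both were tested. In R4KO_1 and R4KO_2, 27 and 30 of 32 pairs had the same sign, and in iR4 23 of 25. Both partners passed in the same direction in 18, 19 and 20 pairs, and in opposite directions in 0. Of all small RNAs tested, 30 of 33 had a negative sign in each knockout and 25 of 26 in iR4, and none passed as higher. Most hosts were lower too, so agreement of sign says little about a pair itself. The median log2 fold change of the small RNAs was -0.99, -1.12 and -1.55, and that of their hosts -0.52, -0.67 and -0.45. Scarce small RNAs could be tested only through groups where they are high. Pairs also share hosts, and low counts spread the small RNAs' values more widely, so these medians are descriptions. RPS12 and its small RNAs were far apart in iR4. RPS12 was at 800.4, 831.0 and 828.8 CPM in Vehicle and at 592.8, 625.5 and 577.2 CPM in iR4 (-0.45 ± 0.033), beside -3.53 for SNORD100, -2.03 for SNORA33 and -1.95 for SNORD101. TAF1D, which encodes a subunit of the RNA polymerase I promoter complex, had -1.28 ± 0.040, and its SNORD6 -2.87 ± 0.336. SNHG3 and SNORA73B were closer, at -2.52 and -3.01, while RCC1, the other gene around SNORA73B, had -0.44 ± 0.033. ZFAS1 had -0.81 and its SNORD12B and SNORD12C -1.68 ± 0.422 and -1.77 ± 0.536.

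**Figure D4:**
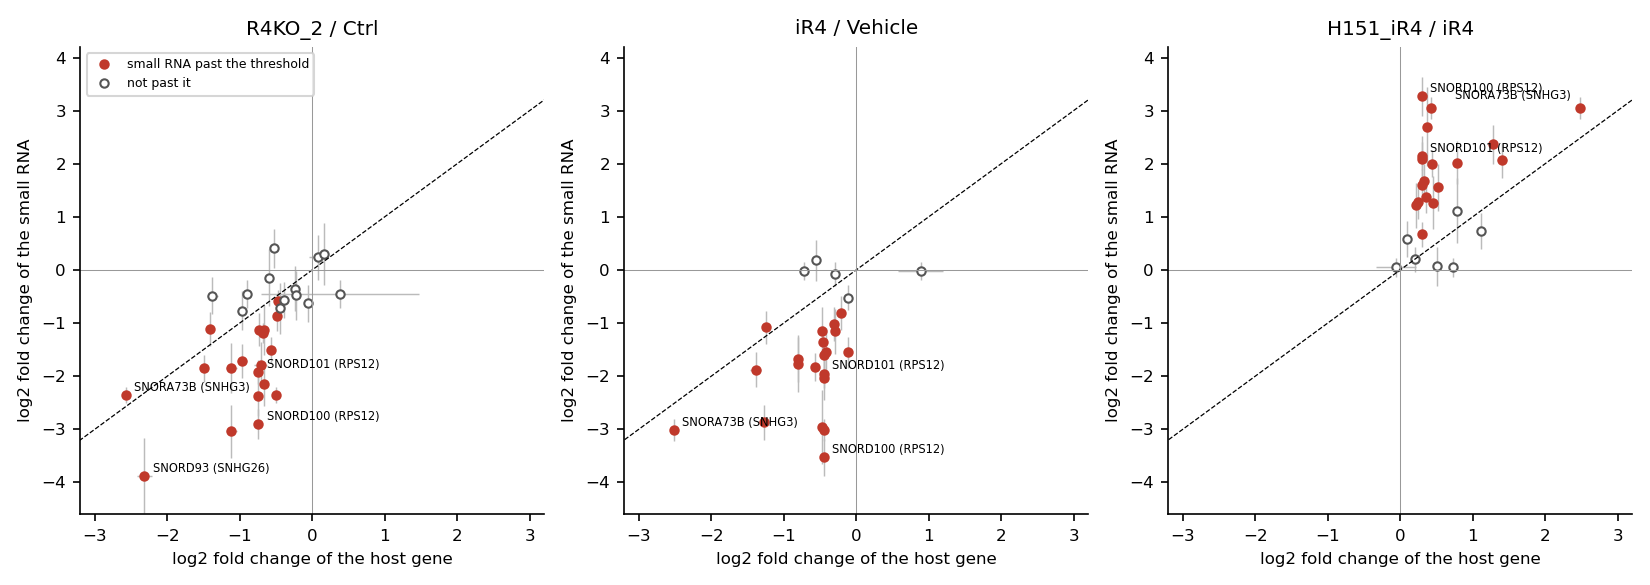
Log2 fold change of each small RNA (vertical) against that of the gene holding it (horizontal) for R4KO_2 against Ctrl (32 pairs), iR4 against Vehicle and H151_iR4 against iR4 (25 pairs each). Whiskers are SEs, filled points small RNAs with an adjusted p under 0.05, and the dashed line marks equal change; in the iR4 panel most filled points lie below the line, with SNORD100 at -3.53 beside -0.45 for RPS12.

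The sequences of SNORA71A and SNORA71C, both in introns of SNHG17, are shown because they belong to 1 family and had different values. Compared position by position over their 134 bases, 95 were the same (70.9%). Whether reads of one were counted on the other was not checked.
SNORA71A, chr20:38427309-38427442, minus strand: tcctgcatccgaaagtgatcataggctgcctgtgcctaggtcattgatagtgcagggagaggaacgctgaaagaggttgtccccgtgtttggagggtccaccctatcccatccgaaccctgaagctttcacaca
SNORA71C, chr20:38429670-38429803, minus strand: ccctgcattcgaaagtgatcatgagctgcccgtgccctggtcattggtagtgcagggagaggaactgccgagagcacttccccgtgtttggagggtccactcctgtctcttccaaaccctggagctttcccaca
In iR4 SNORA71A fell (-1.55) while SNORA71C had -0.52 ± 0.241 and did not pass (adjusted p = 0.0551). In R4KO_2 the values were -1.72 ± 0.322 (adjusted p = 6.87e-05) and -0.77 ± 0.369 (adjusted p = 0.0729). The difference between them was not tested.

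The proteins that bind, assemble and process these RNAs were looked at as 5 lists. All genes tested give the background for each: 31.4%, 32.2% and 34.8% fell in R4KO_1, R4KO_2 and iR4, and 35.7%, 36.4% and 35.1% rose with H151, BX_795 and H151_iR4. Of the 8 core proteins of the particles, 6 fell in R4KO_1 and 7 in R4KO_2, 8 rose with H151 and 8 with BX_795, and 8 fell in iR4, with 0 in the other direction in each. In H151_iR4, 7 rose and 1 fell. Their median log2 fold change was -0.70 in R4KO_1 and 0.69 with H151. DKC1, the pseudouridine synthase of H/ACA particles, was at 296.5 ± 2.39 CPM in control cells, 137.1 ± 8.22 in R4KO_1 and 137.0 ± 2.81 in R4KO_2, and rose with H151 to 278.8 ± 2.52 (log2 fold change 1.01 ± 0.038). NOP56, a core protein of C/D particles, had -0.67, -0.87 and -0.73 in R4KO_1, R4KO_2 and iR4. Of 11 assembly factors, 8 fell in R4KO_1, 9 in R4KO_2 and 9 in iR4, with 0, 0 and 1 rising. RUVBL1 and RUVBL2, ATPases of the complex that loads snoRNA proteins, had -1.07 and -0.62 in R4KO_2, 1.05 and 0.94 with H151, and -1.11 and -0.54 in iR4. ZNHIT6, which helps to assemble C/D particles, had -0.57 in R4KO_1.

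Of 11 tested maturation and Cajal body genes, 7 fell in R4KO_1, 8 in R4KO_2 and 8 in iR4, with 0, 1 and 1 rising, against the same 31.4%, 32.2% and 34.8% of all genes. With H151 5 rose and 1 fell, a count near the 35.7% of all genes that rose, and with BX_795 7 rose and 1 fell (36.4% of all genes rose). NOLC1, a chaperone of snoRNA particles, had -0.67, -0.63 and -0.61 in R4KO_1, R4KO_2 and iR4. XRN2, the nuclease that trims snoRNA 5′ ends, had -0.38 in R4KO_2 and 0.52 with H151. TOE1 and PARN, which trim the 3′ ends of small RNAs, had -0.85 in R4KO_1 and 0.37 in H151_iR4. The 17 factors of nonsense-mediated decay, the pathway that degrades GAS5-type RNAs, were mixed: 8 fell and 1 rose in R4KO_1, 7 and 3 in R4KO_2, and 8 and 3 in iR4, with medians of -0.01, -0.07 and -0.08. UPF1, its central helicase, had -0.58 ± 0.043 in R4KO_1, and SMG5 rose in iR4 by 0.44 ± 0.033. RBM8A, of the exon junction complex, had -0.38 in either knockout and 0.24 with H151, and its partner EIF4A3 -0.35 in R4KO_2 and -0.42 in iR4. With BX_795, MAGOH of the same complex had 0.42 and PNRC2, which links decay to decapping, -0.35. Of 50 protein-coding snoRNA hosts, 45 fell in each of R4KO_1, R4KO_2 and iR4, and 2, 1 and 1 rose. With H151, BX_795 and H151_iR4, 44, 45 and 44 rose and 4, 3 and 1 fell. Their median log2 fold change was -0.52, -0.64 and -0.46 in the first 3 comparisons, beside 0.02 over all genes. TAF1D had -1.50 ± 0.047 in R4KO_2 and 1.32 ± 0.046 with H151, and RPL23, a ribosomal protein gene, had -1.32 ± 0.043 in R4KO_2. CHD4, a chromatin remodeller, had -1.01 in iR4, NCL, the nucleolar protein nucleolin, -0.93 in R4KO_1, and PHB2, a mitochondrial prohibitin, 0.99 with BX_795.

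The iR4 effect was then compared with the mean knockout effect in a fit over all 24 libraries. Of 58 members tested, 21 host genes and 37 small RNAs, the difference was positive and past the threshold for 11, all host genes (14.7% of all 14585 genes). It was negative for 7, of which 6 were small RNAs, no larger a share than the 13.1% of all genes. SNHG17 differed most among named host genes, by 0.72 ± 0.078 (adjusted p = 4.93e-08), then SNHG8 by 0.56 ± 0.082 and SNHG5 by 0.54 ± 0.108. SNHG3 went the other way, by -0.23 ± 0.071 (adjusted p = 0.016). Of the small RNAs, SNORA73B differed by -1.01 ± 0.266 (adjusted p = 0.00452). SNORD100 (-1.29 ± 0.480, adjusted p = 0.0446) and SNORD6 (-1.17 ± 0.411, adjusted p = 0.0401) passed in 9 and 10 of 20 alternatives, with adjusted p-values up to 0.142 and 0.105. Both calls were lost without replicate 2 of the controls, replicate 2 or 3 of iR4, replicate 3 of R4KO_2 or replicate 1 of Vehicle. That of SNORD100 was also lost without control replicate 3, R4KO_1 replicate 3, R4KO_2 replicate 2 or Vehicle replicate 2, and that of SNORD6 without control replicate 1, iR4 replicate 1 or R4KO_1 replicate 2. Both were lost by DESeq2, that of SNORD100 also with the replicate block (0.0505) and that of SNORD6 also with no filter (0.0805).

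The H-151 effect was compared in the same fit, as the effect in iR4 cells minus that in KO_2 cells. Of 58 members tested, 21 host genes and 37 small RNAs, it was smaller in iR4 cells for 19, 17 of them host genes (27.0% of all genes). It was larger for 7, 6 of them small RNAs, a smaller share than the 23.7% of all genes. SNHG21 differed by -1.39 ± 0.251, SNHG17 by -1.22 ± 0.083 and SNHG4 by -1.22 ± 0.128 (adjusted p = 3.27e-05, 4.3e-13 and 3.91e-09). SNORA73B differed by 1.423 ± 0.292 and SNORD14A by 1.37 (adjusted p = 0.000156 and 0.000496). SNORD100 had 1.34 ± 0.566 (adjusted p = 0.049) and passed in 6 of 17 alternatives, with adjusted p-values up to 0.244. It was lost without replicate 2 or 3 of H151_iR4, iR4 or R4KO_2, without KO_2_H151 replicate 1 or 2, with the replicate block (adjusted p = 0.0544), by DESeq2 (0.0733) and with no filter on low counts (0.0577). The experiments differ in control group as well as in treatment, and these cannot be told apart.

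**Figure D5:**
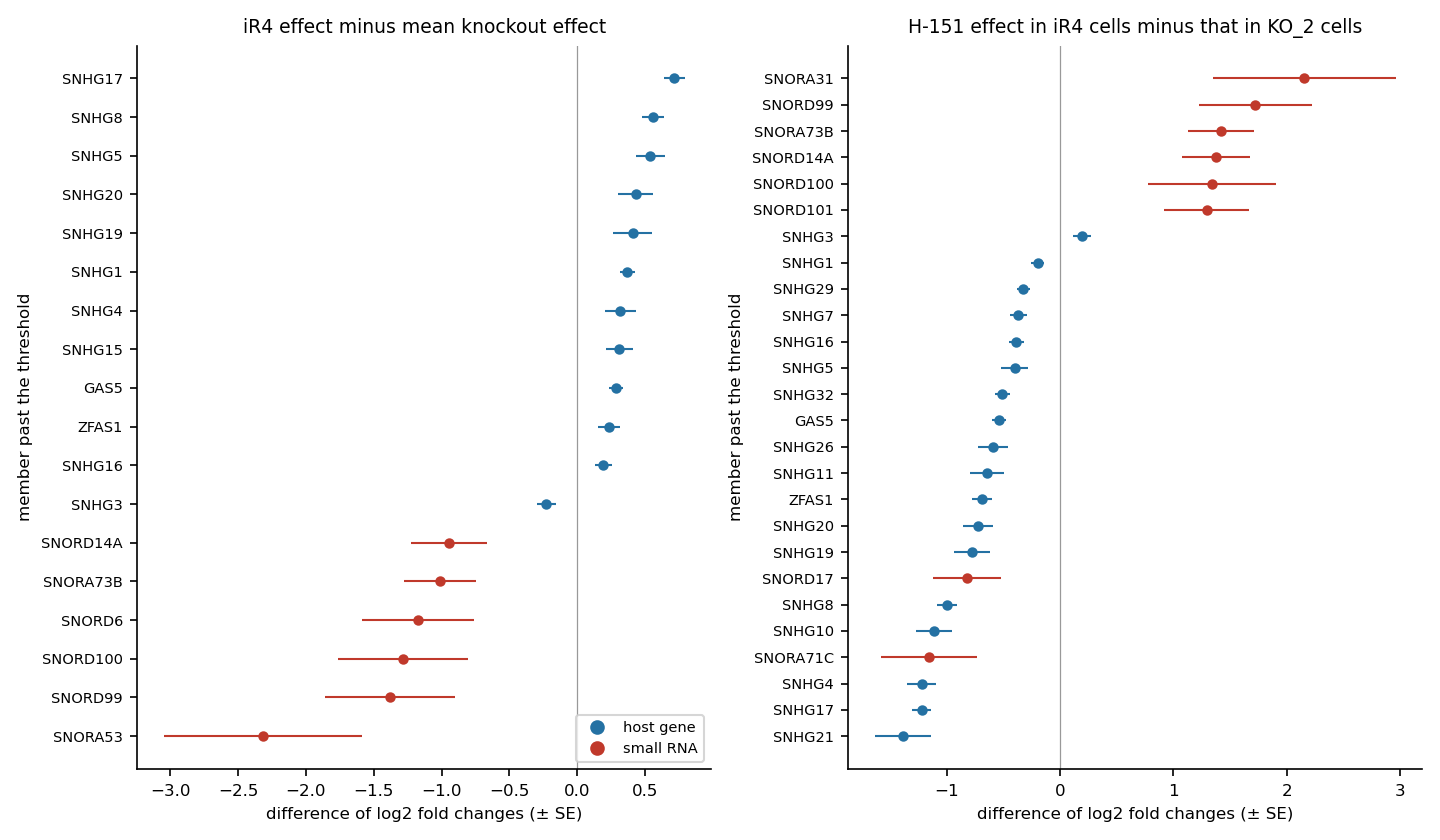
Members whose effect differed between the experiments at an adjusted p under 0.05: iR4 effect minus mean knockout effect (left, 18 members) and H-151 effect in iR4 cells minus that in KO_2 cells (right, 26 members), as differences of log2 fold changes ± SE. Host genes (blue) lie mostly to the right of 0 in the left panel and to the left of it in the right panel, and small RNAs (red) mostly on the opposite sides.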

How the data were processed

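The submitters' processing notes name DESeq2 1.42.0, featureCounts 2.0.1, HISAT2 2.2.1, Trim Galore 0.6.4 and FastQC 0.11.9, with the builds hg38 and mm10. The labels call the molecule genomic DNA, but the protocols describe an RNA library. Per the labels' protocols, RNA was selected with oligo(dT), broken into fragments and primed at random. The authors deposited raw counts per Ensembl identifier, 1 file per library, with no normalization. No gene annotation or strand setting is given in the sources used here, so genes that overlap on opposite strands, such as ZFAS1 and SNHG12 with their neighbours, may share reads. The 4 mouse tumor libraries were not used here. An identifier with several symbols was used once, and all 35135 matched the gene name table.

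The knockout experiment (15 libraries) and the iR4 experiment (9) were tested apart, each with edgeR 4.0.16 and its quasi-likelihood F test in R 4.3.3. Libraries were scaled by TMM, genes filtered by filterByExpr at 10 counts, and p-values adjusted by Benjamini-Hochberg over every gene tested, at a threshold of 0.05. All 24 were fitted together for the 2 differences of effects. There were 6 main and 7 secondary comparisons. DESeq2 1.42.0, RLE factors, other filters, a replicate block, 1 common fit, a higher count minimum for members and leaving out each replicate were alternatives. Tests were also run on simulated data. Levels are CPM scaled by TMM factors over 24 libraries, and RPKM divides by exon length in GENCODE v29.

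Depth ran from 16.04 M to 27.94 M counts. For most small RNAs, with 46 of 67 members at a mean count under 50, it limits what can be seen. The members, the gene lists and the comparisons were chosen with earlier results of these data known. Named members were the 6 largest rises and falls in a main comparison (3 in a secondary one) among those past the threshold whose groups did not overlap and whose mean log2 CPM reached 0. GAS5, ZFAS1, SNHG1 and SNHG3, small RNAs beside their hosts, and the 2 lowest-p members of each list in each main comparison were added. SNHG10, SNHG11, SNHG17, SNHG20, SNHG28, SNORD12B, SNORD17, SNORD93, SNORA59A and SNORA71A, where the rule did not select them, were named after their values were seen.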

Additional observations from a re-analysis of the deposited data

Results flagged for a closer look

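The 12 results given here are the 3 largest differences each way, among members that met the naming rule, in each of the 2 tests of a difference between the experiments. Both tests used the fit over all 24 libraries. More members passed in all: 11 positive and 7 negative for the iR4 effect, and 7 positive and 19 negative for the H-151 effect. The iR4 effect minus the mean knockout effect was 0.72 for SNHG17, 0.56 for SNHG8 and 0.54 for SNHG5, so these host genes fell less in iR4. It was -1.01 for SNORA73B, -1.17 for SNORD6 and -1.29 for SNORD100, so these small RNAs fell more by these estimates. The calls of SNORD6 and SNORD100 held in only 10 and 9 of 20 alternatives. SNHG17 had log2 fold changes of -0.70, -0.97 and -0.12 in R4KO_1, R4KO_2 and iR4, and SNORA73B had -1.64, -2.36 and -3.01.

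The H-151 effect in iR4 cells minus that in KO_2 cells was -1.39 for SNHG21, -1.22 for SNHG17 and -1.22 for SNHG4. It was 1.423 for SNORA73B, 1.37 for SNORD14A and 1.34 for SNORD100, whose call held in only 6 of 17 alternatives. SNHG4 stood at 28.1 ± 0.931 CPM in treated KO_2 cells, above Ctrl Vehicle at 18.9 ± 1.65, and at 22.4 ± 0.659 CPM in H151_iR4, near Vehicle at 23.2 ± 1.10. PXDN, which is high in the treated KO_2 libraries and low in R4KO_2 Vehicle, was at 0.748 CPM in H151_iR4 and 0.643 in iR4. Its part in these differences was not tested.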

How the results depend on the processing

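The number of members was 21 at a mean count of at least 50 and 121 at at least 1. Among the 21, 19 fell in R4KO_1 (0 rose) and 19 in R4KO_2, 21 rose with H151 and 21 with BX_795 (0 fell), 18 fell in iR4 and 17 rose in H151_iR4; against Ctrl, 5 were lower with H151 and 5 with BX_795; the H-151 effect was larger for 2 and the iR4 effect lower for 2. The 1 rise in R4KO_1 became 0 with no filter, by DESeq2 and in 1 fit of 24 libraries. The 1 fall with BX_795 became 2 with no filter, with the replicate block and in 1 fit of 24 libraries, and 0 with a filter of 1 CPM. H151_iR4 against Vehicle had 2 higher with no filter and 1 lower by DESeq2. DESeq2 gave 7 higher and 2 lower for the iR4 minus knockout effect. RLE factors moved none of 26 counts. Same-numbered libraries showed little shared deviation (r from -0.09 to 0.19 in the knockout experiment, -0.03 to 0.03 in the other). Libraries with different numbers had r from -0.19 to 0.17 and from -0.04 to 0.04. This cannot show whether libraries with the same number were handled together, and the labels do not say. The replicate block left the other 25 counts within 1.5 times.

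Leaving out 1 replicate gave these ranges: R4KO_1 0 to 1 higher and 33 to 37 lower; R4KO_2 35 to 40 lower; H151 39 to 40 higher and 0 to 1 lower; BX_795 39 to 43 higher and 0 to 3 lower; iR4 34 to 38 lower; H151_iR4 33 to 37 higher; H151_iR4 against Vehicle 0 to 1 higher and 1 to 2 lower; BX_795 against H151 0 to 1 lower; the H-151 effect 4 to 9 higher and 18 to 20 lower; the iR4 minus knockout effect 7 to 11 higher and 2 to 7 lower. All 660 alternative values of 55 results in the main comparisons kept their direction and side of the threshold. Those results were for members picked by the naming rule and for GAS5, ZFAS1, SNHG1 and SNHG3. Of 30 rule-named results in secondary comparisons, 22 kept both in every alternative run and 0 reversed. Calls named outside the rule were not in these counts. SNHG28 in R4KO_1 held in 4 of 12 alternatives, SNHG17 in iR4 in 6 of 12 and SNORA59A with BX_795 in 9 of 11.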
